A study of Mus musculus with 8 samples.

Results

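The genes described here are 34 markers that place a melanoma cell between a melanocytic, pigment-making state and a dedifferentiated, mesenchymal or neural crest state. They were taken by symbol from a list of 19 pigment genes and 15 mesenchymal and neural crest genes, out of 55492 rows of genes. This list and the wider lists below were chosen with earlier results of these data known. All 34 had a row. The 15 include Cdh1, whose product E-cadherin is a target of repression in the dedifferentiated state and not a marker of it. RNA came from YUMM5.2, a mouse melanoma cell line of strain C57B/6J by its label, and all libraries come from this single line. It is known to carry an activated Braf allele and to lack Trp53, and both groups share that background. The 4 libraries of the 4-OI group came from cells given 4-octyl itaconate, a cell-permeable form of the metabolite itaconate, and the 4 libraries of the DMSO group came from cells given the solvent alone, with both groups cultured for 20 h. No source used here gives the dose of 4-OI.

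Melanocytes make melanin in melanosomes, organelles related to lysosomes. The transcription factor MITF, with SOX10 above it and alongside it, switches on the enzymes, matrix proteins and channels of the melanosome. Melanoma cells can lose this program and take on features of mesenchymal or early neural crest cells, a state marked by receptors such as AXL, EGFR and the p75 receptor and by the SNAIL, TWIST and ZEB repressors of E-cadherin. A classical sequence in pigment gene promoters is the M-box, TCATGTG, which MITF binds.

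In these libraries the pigment program was near or under the limit of detection in both groups, with Mitf and the transport motor gene Myo5a as the clearly expressed exceptions, while 13 of the 15 mesenchymal and neural crest genes were expressed well enough to test. With 4-OI, 19.3% of all tested genes were called higher and 19.6% lower. Mitf rose, and 8 of the 13 mesenchymal and neural crest genes fell, led by Aqp1, Snai2 and Egfr. Nes rose as well, Zeb2 rose by a small amount in a call lost in 8 of 19 alternatives, and Zeb1, Twist1 and Twist2 did not pass the test.

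The promoters of 4 pigment genes with few or no reads are shown as examples of the 6 that carry the M-box. That of Mitf is shown because it is the pigment gene that rose. Mc1r and Slc24a5, the other carriers, also had few reads and are not shown. Each is the run of 250 bases before a start site in RefSeq, build GRCm38.p6, read 5′ to 3′ on the gene's strand, with a window found for 13 of the 19 pigment genes and 10 of the 15 mesenchymal and neural crest genes. Capitals mark TCATGTG on either strand in the first 4 and TGACGTCA, the cyclic AMP response element, in Mitf. The windows lie at chr7:87493513-87493762 on the minus strand for Tyr (tyrosinase, the first enzyme of melanin synthesis), chr4:80833963-80834212 on the plus strand for Tyrp1 (tyrosinase-related protein 1), chr14:118052247-118052496 on the minus strand for Dct (dopachrome tautomerase), chr7:64153585-64153834 on the plus strand for Trpm1 (a cation channel of melanocytes) and chr6:97991533-97991782 on the plus strand for Mitf, before the most downstream of its starts, which is the one melanocytes use.
Tyr: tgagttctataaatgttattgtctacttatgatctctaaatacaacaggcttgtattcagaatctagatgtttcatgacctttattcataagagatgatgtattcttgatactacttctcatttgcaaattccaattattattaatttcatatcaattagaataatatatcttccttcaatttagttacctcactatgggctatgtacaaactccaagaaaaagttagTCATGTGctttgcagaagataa
Tyrp1: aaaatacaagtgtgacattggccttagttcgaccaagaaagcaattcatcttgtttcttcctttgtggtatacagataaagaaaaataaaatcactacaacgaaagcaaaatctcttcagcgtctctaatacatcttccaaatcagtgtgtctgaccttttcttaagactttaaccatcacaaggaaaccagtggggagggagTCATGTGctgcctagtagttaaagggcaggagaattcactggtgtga
Dct: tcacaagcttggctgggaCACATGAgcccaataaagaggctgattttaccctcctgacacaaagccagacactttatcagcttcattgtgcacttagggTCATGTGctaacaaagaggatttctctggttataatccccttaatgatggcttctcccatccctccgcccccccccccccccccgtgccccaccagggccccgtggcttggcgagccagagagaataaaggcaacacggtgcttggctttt
Trpm1: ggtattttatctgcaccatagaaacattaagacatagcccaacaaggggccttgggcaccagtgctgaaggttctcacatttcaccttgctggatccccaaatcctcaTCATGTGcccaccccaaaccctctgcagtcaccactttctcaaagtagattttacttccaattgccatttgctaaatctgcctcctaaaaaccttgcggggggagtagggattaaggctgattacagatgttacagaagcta
Mitf: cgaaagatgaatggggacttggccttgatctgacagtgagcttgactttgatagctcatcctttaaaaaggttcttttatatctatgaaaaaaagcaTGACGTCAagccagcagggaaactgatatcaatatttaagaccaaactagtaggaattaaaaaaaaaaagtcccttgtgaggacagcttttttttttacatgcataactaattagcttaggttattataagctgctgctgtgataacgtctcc
TCATGTG was found, on either strand, in 1068 of 32851 windows of this length over all genes, 3.25%, and in 1006 of 27025 genes with a window, 3.72%. It was in 6 of the 13 pigment genes with a window, which were Tyr, Tyrp1, Dct, Trpm1, Mc1r and Slc24a5, and in 0 of the 10 mesenchymal and neural crest genes with one. Its first base lay 22 bases before the start in Tyr, 47 in Tyrp1, 142 in Trpm1, and 232 and 151 in Dct, which holds 2 copies. TGACGTCA was in 508 windows, 1.55%, and in Mitf it began 153 bases before the start. CACGTG, which was also searched for, was in 1854 of 27025 genes with a window, 6.86%. It was in 3 of the 13 pigment genes (Mlph, Trpm1 and Rab27a) and 0 of the 10 mesenchymal and neural crest genes. A match of letters is a description, not a measured binding site.

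Total counts ran from 25664999 to 31185027 in the 4-OI libraries and from 22962963 to 31361677 in the DMSO libraries. Calls were frequent among all genes: in the edgeR fit of 13531 genes, with Benjamini-Hochberg adjustment and a threshold of 0.05, 38.8% passed, 19.3% as higher with 4-OI and 19.6% as lower. Per-library values below are CPM, counts relative to the library total after edgeR's TMM scaling, and TPM is used where genes are set side by side, because it takes transcript length into account. Log2 fold changes are 4-OI over DMSO, with their standard error (SE). The labels describe 4 separately sequenced experiments per condition but not separate cultures, and p-values here rest on the spread among these libraries alone, which may be technical. In bulk RNA, fewer cells of a type and less RNA per cell cannot be told apart. Trp53 stood at 1.25 ± 0.43 CPM with 4-OI and 1.57 ± 0.119 CPM with DMSO (SD, n = 4 each), and Braf at 38.2 ± 3.03 CPM with 4-OI and 36.7 ± 0.651 CPM with DMSO, neither called.

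**Figure D1:**
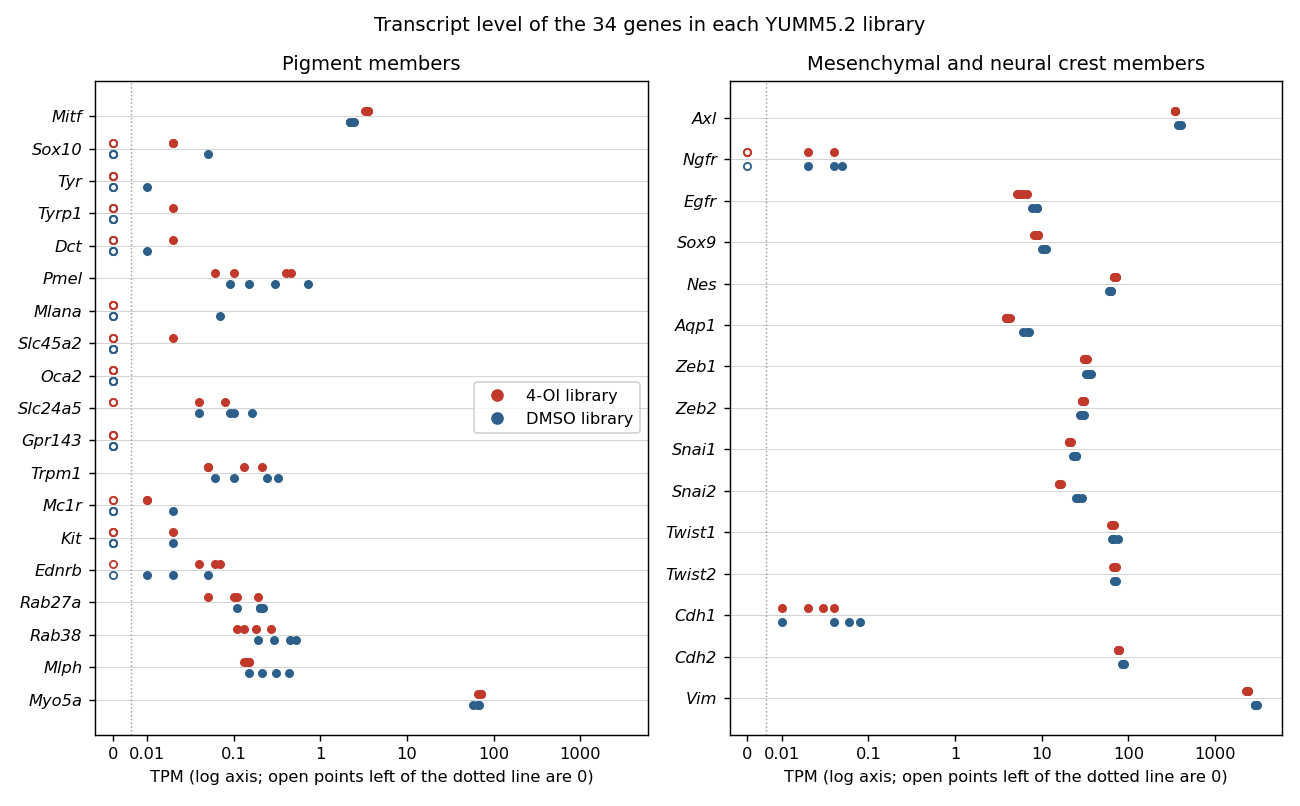
Length-scaled level (TPM, log axis) of the 34 genes, 1 point per library, with 4-OI above DMSO in each row and open points for a level of 0. Apart from Mitf and Myo5a, the pigment genes lie under 1 TPM in every library, while 13 of the 15 mesenchymal and neural crest genes lie above 1 TPM.

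Among the pigment genes, 16 of 19 fell under the filter on low counts, 1 was called higher (Mitf), 1 was called lower (Mlph) and 1 was tested and not called (Myo5a). Of all 55492 rows, 41961 fell under the filter. The groups did not overlap for Mitf, with 4-OI above, or for Mlph, with 4-OI below; of all tested genes, 17.4% had all 4-OI libraries above and 17.9% had them all below. With 3 pigment genes tested, these counts do not describe the program as a whole, and the rest are given as counts.

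Mitf (ENSMUSG00000035158, chromosome 6, 97807052 to 98021349, plus strand, GRCm38), the master regulator of the melanocyte lineage, had 10.2, 9.46, 9.65 and 10.6 CPM in the 4-OI libraries, against 6.28, 6.07, 7.02 and 6.31 CPM in the DMSO libraries. The groups did not overlap, and the 4-OI mean of 9.98 ± 0.535 CPM stood above the DMSO mean of 6.42 ± 0.414 CPM (SD, n = 4 each). The log2 fold change was 0.64 (SE 0.07, adjusted p = 4.49e-07, edgeR). On the length-scaled level Mitf remained a low transcript, at 3.45 ± 0.156 TPM with 4-OI and 2.29 ± 0.104 TPM with DMSO. By mean TPM it ranked 10355 of 55492 genes with 4-OI and 10971 with DMSO. The gene-level tables do not separate its start sites, so the start that gave the added reads is not known from them.

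Sox10, the neural crest factor that maintains Mitf in melanocytes, had 0, 1, 1 and 0 counts in the 4-OI libraries and 0, 0, 2 and 0 counts in the DMSO libraries. Its counts did not reach 3 in any library. Pax3, another known activator of Mitf, named after its values were seen, was expressed at 37.8 ± 1.88 CPM with 4-OI and 39.3 ± 1.35 CPM with DMSO (SD, n = 4 each) and was not called (log2 fold change -0.06, SE 0.04, adjusted p = 0.315, edgeR).

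The enzymes and matrix proteins of the melanosome were close to absent. Tyr had 0 counts in each 4-OI library and 0, 1, 0 and 0 counts in the DMSO libraries. Tyrp1 had 1 count in a single 4-OI library and 0 in the DMSO libraries. Dct had 1 count in 1 library of each group. Mlana, which encodes the melanosome protein MART-1, had 0 counts in the 4-OI libraries and 1 count in a single DMSO library. These genes therefore lay at or under the limit set by counting, since a count of 0 in all libraries of a group allows up to 3 counts, or 0.0262 CPM over the 4-OI libraries and 0.0286 CPM over the DMSO libraries. Floors and limits of this kind cover counting error only. Pmel, which forms the fibrils that melanin is laid on, had 2, 4, 4 and 4 counts with 4-OI and 2, 5, 8 and 4 counts with DMSO. Its exons overlap Cdk2 and Dgka on the opposite strand, Cdk2 stood at 45.8 CPM with 4-OI and 50.2 CPM with DMSO, and the strand setting of the counting is not given, so the source of the Pmel reads cannot be told apart from these neighbours.

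Channels and transporters of the melanosome were as low. Oca2, a melanosomal anion channel component, and Gpr143, the melanosomal receptor affected in ocular albinism, had 0 counts in all 8 libraries, which allows up to 0.0137 CPM over all of them. Slc45a2, a transporter of the melanosome, had 1 count in a single 4-OI library and 0 with DMSO. Slc24a5, a cation exchanger of pigment cells, had 0, 0, 3 and 1 counts with 4-OI and 3, 3, 4 and 1 counts with DMSO, and its exons overlap the expressed gene Myef2 on the opposite strand (217 CPM with 4-OI and 231 CPM with DMSO). Trpm1 had 3, 2, 3 and 6 counts with 4-OI and 10, 6, 4 and 7 counts with DMSO, and the groups overlapped.

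The receptors of the melanocyte lineage were also near 0. Mc1r, the melanocortin receptor that raises cyclic AMP, had 0, 1, 0 and 1 counts with 4-OI and 1, 0, 0 and 0 counts with DMSO. Kit, the receptor for stem cell factor, had 1 count in 1 library of each group, while its ligand gene Kitl was well expressed. Ednrb, the endothelin receptor of melanoblasts, had 4, 3, 0 and 3 counts with 4-OI and 1, 0, 2 and 1 counts with DMSO. All 3 were under the filter on low counts.

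Kitl, which encodes stem cell factor, had 155, 148, 149 and 160.0 CPM in the 4-OI libraries, against 73.8, 73.4, 75.9 and 73.1 CPM in the DMSO libraries. Every 4-OI library stood above every DMSO library, with a log2 fold change of 1.05 (SE 0.03, adjusted p = 2.48e-16, edgeR). The ligand was thus well expressed in both groups, while its receptor had a single count in each.

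Melanosome transport was the one arm of the pigment list with a strongly expressed gene. Myo5a, the motor that carries melanosomes along actin and also serves other cargo, had 198, 187, 192 and 190.4 CPM with 4-OI, against 186, 176, 189 and 185 CPM with DMSO. The groups overlapped, and Myo5a was not called (log2 fold change 0.06, SE 0.03, approximate 95% interval 0.01 to 0.11, adjusted p = 0.0764, edgeR). It passed the threshold without DMSO replicate 3 (adjusted p = 0.0474) and ranged from 0.0236 to 0.279 over 19 alternatives. Mlph, the melanophilin adaptor that links the motor to the melanosome, had 0.425, 0.461, 0.399 and 0.448 CPM with 4-OI, against 0.647, 0.956, 0.965 and 0.48 CPM with DMSO. These values rest on 11 to 14 counts per 4-OI library and 15 to 23 per DMSO library. The fitted log2 fold change was -0.77 (SE 0.28, adjusted p = 0.036, edgeR), and the call was lost without any single 4-OI replicate (adjusted p 0.0546 to 0.0804), without DMSO replicate 2 (0.119) and without DMSO replicate 3 (0.113), in a range of 0.0122 to 0.225 over 19 alternatives. Rab27a, the GTPase that Mlph binds, had 5, 9, 7 and 3 counts with 4-OI and 10, 6, 9 and 7 counts with DMSO. Rab38, which sorts enzymes to the melanosome, had 3, 3, 5 and 8 counts with 4-OI and 7, 10, 4 and 7 counts with DMSO, so both genes overlapped between groups.

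Summed over the 17 pigment genes other than Mitf and Myo5a, the libraries held 30, 37, 36 and 40 counts with 4-OI and 52, 54, 55 and 44 counts with DMSO. As a level this was 0.9 ± 0.271 TPM with 4-OI and 1.47 ± 0.253 TPM with DMSO (SD, n = 4 each), for all 17 together. The sum was lower in each 4-OI library than in each DMSO library in counts and CPM, and it is a description with no test, since Mlph, Trpm1, Rab27a, Rab38 and Pmel supply most of it. Of the 18 genes of both lists under the filter, 16 had a count in some library, and an edgeR fit without the filter called 0 of them, with 0 at an unadjusted p under 0.05. limma on TPM without the filter also called 0, with 2 at an unadjusted p under 0.05.

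The genes that build melanosomes but also serve lysosomes in other cells were expressed in this line. Their list also holds the cystine importer Slc7a11, which is not a gene of melanosome or lysosome assembly. Of 28 listed, 27 were tested, 6 were higher, 5 were lower and 16 were not called, a share of calls close to the 38.8% of all tested genes, with a median log2 fold change of -0.01 against 0.00 over all genes tested. The largest log2 fold change was that of Slc7a11, the cystine importer, at 516 ± 11.1 CPM with 4-OI and 95.8 ± 2.45 CPM with DMSO (SD, n = 4 each; log2 fold change 2.43, SE 0.03, adjusted p = 5.17e-23, edgeR). Mreg, a melanosome transport regulator, rose by 0.41 (SE 0.10), Rab32, which acts with Rab38, fell by 0.21 (SE 0.04), and Bloc1s1, a subunit of a sorting complex, fell by 0.18 (SE 0.06) on the log2 scale. The Bloc1s1 call was lost in 6 of 19 alternatives, within a range of 0.00267 to 0.293. These were edgeR without 4-OI replicate 3 (adjusted p = 0.0539) or DMSO replicate 4 (0.0654), and the limma settings (0.132 to 0.293). The Mreg call was lost in limma on log2(TPM + 1) without the filter (adjusted p = 0.0819). Melanosome assembly genes were thus present while the pigment enzymes were near 0.

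Of 30 regulators, relatives and targets of MITF, 16 were tested, 3 were higher, 5 were lower and 8 were not called, beside 19.3% higher and 19.6% lower of all tested genes, with a median log2 fold change of -0.02. Beside Kitl, Tfe3, a relative of MITF that binds the same DNA, was higher at 75.8 ± 2.74 CPM with 4-OI and 65.4 ± 2.1 CPM with DMSO (log2 fold change 0.22, SE 0.03, adjusted p = 3.41e-05, edgeR). Bhlhe40, a repressor of the basic helix-loop-helix class, was lower at 43 ± 1.22 CPM with 4-OI and 69.5 ± 5.19 CPM with DMSO (log2 fold change -0.69, SE 0.04, adjusted p = 1.25e-10, edgeR). Met, the hepatocyte growth factor receptor and an MITF target, was lower at 163 ± 3.46 CPM with 4-OI and 190.5 ± 1.77 CPM with DMSO (log2 fold change -0.23, SE 0.02). Chosen after their values were seen, Tfeb, another relative, stood at 6.01 CPM with 4-OI and 6.02 CPM with DMSO, and Tfec had 0 counts in all libraries.

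**Figure D2:**
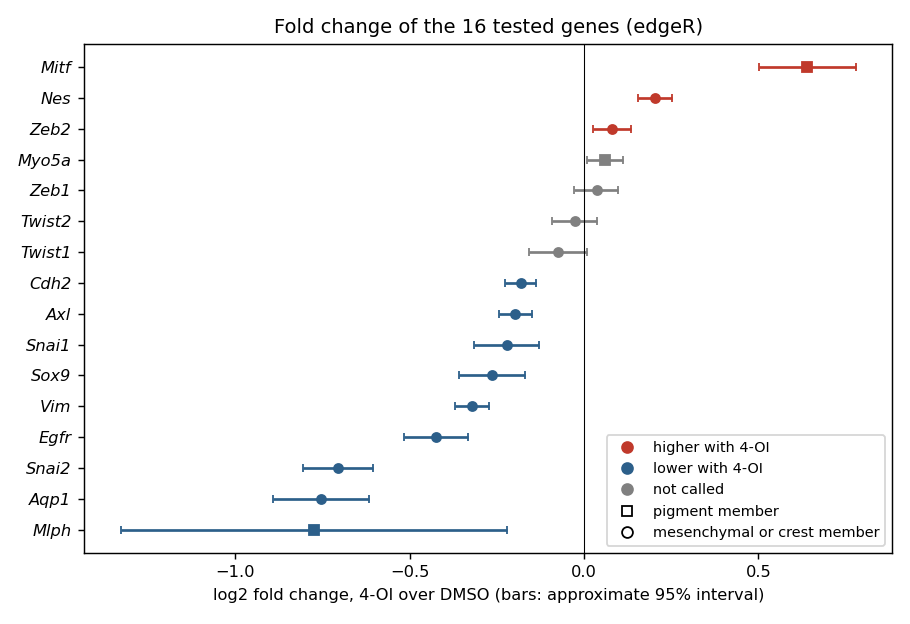
Log2 fold change, 4-OI over DMSO, of the 16 genes that passed the filter on low counts, with approximate 95% intervals, squares for pigment genes and circles for mesenchymal or neural crest genes. Mitf lies highest at 0.64 and Mlph, Aqp1 and Snai2 lie lowest, at -0.77, -0.75 and -0.70.

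Of the 15 mesenchymal and neural crest genes, 2 (Ngfr and Cdh1) were under the filter. Cdh1 encodes E-cadherin, the target of the repressors in this list, and is not itself a mesenchymal marker. The other 13 were tested: 2 were higher, 8 were lower and 3 were not called, beside 19.3% higher and 19.6% lower of all tested genes. Every 4-OI library lay below every DMSO library for 8 of them and above for 1, against 17.9% and 17.4% of all tested genes. Their median log2 fold change was -0.20, against 0.00 over all tested genes. The 8 lower calls held under each of 19 alternatives.

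Axl (ENSMUSG00000002602, chromosome 7, 25757273 to 25788705, minus strand), a receptor tyrosine kinase of dedifferentiated melanoma, had 784, 794, 789 and 767 CPM with 4-OI, against 874, 890.4, 922 and 907 CPM with DMSO. The groups did not overlap, and the fall was small (log2 fold change -0.20, SE 0.02, adjusted p = 1.79e-06, edgeR). As a level Axl stood at 342 ± 1.23 TPM with 4-OI and 388 ± 11.7 TPM with DMSO, and the ratio of Axl to Mitf in TPM was 99.2 ± 4.76 with 4-OI and 170 ± 3.49 with DMSO (SD, n = 4 each). Both numerator and denominator of that ratio moved, in opposite directions.

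Egfr (ENSMUSG00000020122, chromosome 11, 16752203 to 16918158, plus strand), the epidermal growth factor receptor, had 33.9, 29.5, 30.8 and 30.1 CPM with 4-OI, against 42.1, 38.9, 42.6 and 42.9 CPM with DMSO. No 4-OI library reached the lowest DMSO library (log2 fold change -0.42, SE 0.05, adjusted p = 4.19e-07, edgeR). The effective length implied by its counts and FPKM ran from 6014 to 8375 bases with 4-OI and from 6536 to 6962 bases with DMSO, so its TPM values carry more spread, at 5.9 ± 0.701 TPM with 4-OI and 8.45 ± 0.565 TPM with DMSO.

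Aqp1 (ENSMUSG00000004655, chromosome 6, 55336432 to 55348555, plus strand), a water channel found in neural crest-like melanoma cells, had 7.22, 6.45, 6.79 and 6.63 CPM with 4-OI, against 11.3, 10.2, 12.1 and 12 CPM with DMSO. The groups lay far apart, and the change was the largest of the 13 tested genes (log2 fold change -0.75, SE 0.07, adjusted p = 4.19e-08, edgeR). Sox9, a crest factor that can act in opposition to SOX10, was lower at 24.5 ± 1.16 CPM with 4-OI and 29.5 ± 1.41 CPM with DMSO (log2 fold change -0.26, SE 0.05, adjusted p = 0.000208, edgeR), with no overlap between groups.

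Nes (ENSMUSG00000004891, chromosome 3, 87971078 to 87980451, plus strand), an intermediate filament of neural progenitors, moved the other way. It had 242, 248, 254 and 242 CPM with 4-OI, against 212, 210.3, 219.5 and 213 CPM with DMSO, and the groups did not overlap (log2 fold change 0.20, SE 0.02, adjusted p = 1.28e-06, edgeR). Ngfr, which encodes the p75 receptor that defines the neural crest stem cell-like state, had 0, 1, 0 and 3 counts with 4-OI and 3, 1, 2 and 0 counts with DMSO. The crest receptor used to mark that state was therefore not measurable here. The listed genes Aqp1 and Nes differed in direction. Of 18 tested genes in the wider neural crest list below, 10 were lower and 2 higher (all tested genes: 19.6% lower, 19.3% higher).

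**Figure D3:**
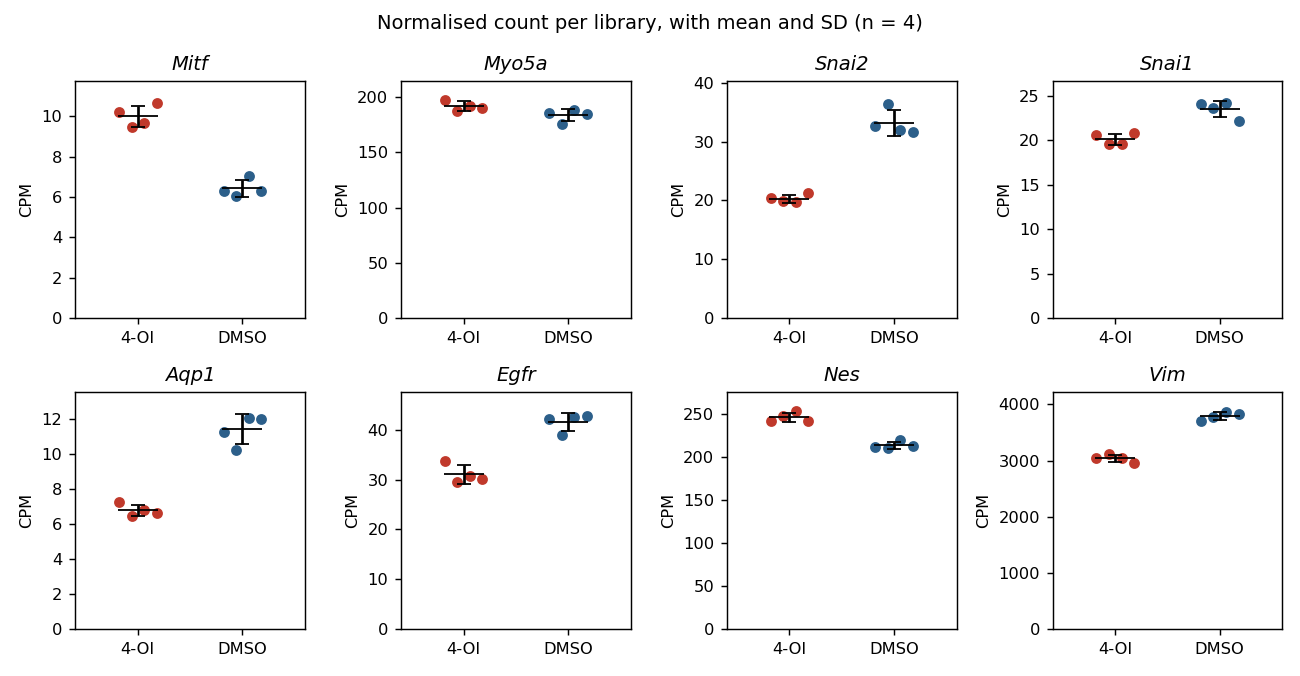
Normalised count (CPM) per library for 8 genes of the list, with the group mean and SD (n = 4), 4-OI left of DMSO and each axis starting at 0. Mitf and Nes lie higher with 4-OI without overlap, Snai2, Snai1, Aqp1, Egfr and Vim lie lower without overlap, and the Myo5a groups overlap.

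The 6 repressors of E-cadherin did not move together: Snai1 and Snai2 fell, Zeb2 rose by a small amount and Zeb1, Twist1 and Twist2 were not called. Snai2 (ENSMUSG00000022676, chromosome 16, 14705852 to 14709385, plus strand), which encodes SLUG, a factor of crest migration and of the melanocyte lineage, had 20.3, 19.9, 19.7 and 21.3 CPM with 4-OI, against 32.6, 36.5, 31.9 and 31.6 CPM with DMSO. The highest 4-OI library stood below the lowest DMSO library by a wide margin (log2 fold change -0.70, SE 0.05, adjusted p = 9.86e-10, edgeR). Snai1, which encodes SNAIL, had 20.5, 19.6, 19.6 and 20.8 CPM with 4-OI, against 24.1, 23.6, 24.2 and 22.2 CPM with DMSO. It fell less than Snai2 (log2 fold change -0.22, SE 0.05, adjusted p = 0.000898, edgeR). The ratio of Snai1 to Snai2 in TPM was 1.32, 1.28, 1.3 and 1.27 with 4-OI, against 0.963, 0.842, 0.988 and 0.915 with DMSO, so Snai1 exceeded Snai2 in each 4-OI library and in no DMSO library.

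Zeb2, a repressor tied to the melanocyte lineage, had 101, 97.2, 103 and 102 CPM with 4-OI, against 94.8, 94.1, 97.4 and 95 CPM with DMSO. The groups overlapped, since 1 4-OI library lay under the highest DMSO library (log2 fold change 0.08, SE 0.03, adjusted p = 0.0239, edgeR). The call was lost without 4-OI replicate 3 (adjusted p = 0.0881), DMSO replicate 1 (0.0513), DMSO replicate 2 (0.0686) or DMSO replicate 4 (0.0595), and on TPM it was not made (29.9 ± 0.942 TPM with 4-OI and 29.4 ± 1.36 TPM with DMSO, adjusted p = 0.698, limma). Over its 19 alternatives the adjusted p ran from 0.00623 to 0.746.

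Zeb1, the partner of Zeb2 linked with the invasive state, had 85.1, 85.9, 89.1 and 85.1 CPM with 4-OI, against 82.1, 80.0, 88.1 and 86.6 CPM with DMSO. The groups overlapped (log2 fold change 0.04, SE 0.03, approximate 95% interval -0.03 to 0.10, adjusted p = 0.417, edgeR). On the length-scaled level the sign turned, at 31.7 ± 1.24 TPM with 4-OI and 35 ± 1.96 TPM with DMSO (log2 difference -0.14, adjusted p = 0.058, limma on log2(TPM + 1)), and it was not called on either scale. The effective length implied by counts and FPKM was 3813, 3879, 3712 and 3553 bases with 4-OI, against 3332, 3010, 3232 and 3570 bases with DMSO. The counts and the levels per length thus differ by the length that the authors' processing assigned to Zeb1 in each library, and which transcripts it reflects was not tested.

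**Figure D4:**
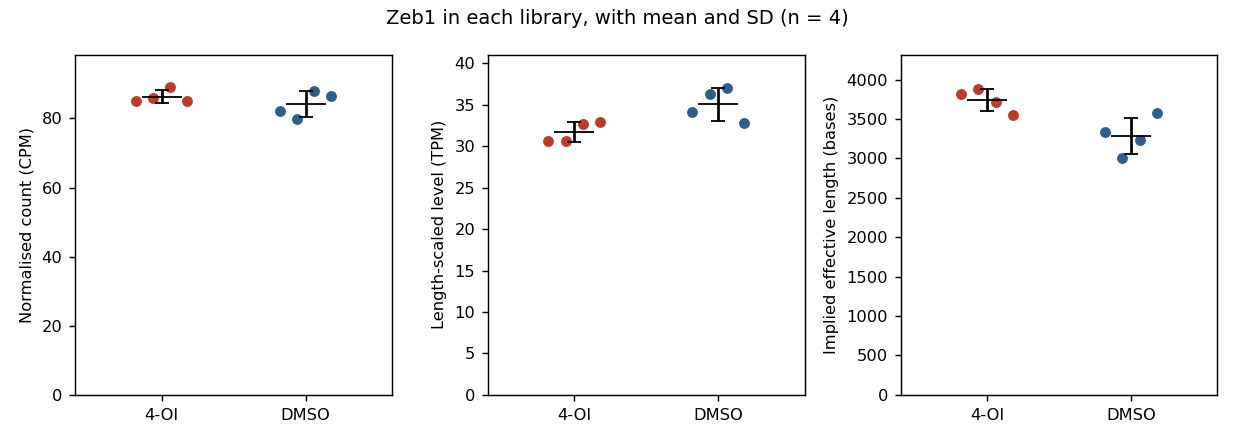
Zeb1 in each library as normalised count (CPM), as length-scaled level (TPM) and as the effective length that counts and FPKM imply (bases), with mean and SD (n = 4) and 4-OI left of DMSO. Counts overlap between groups. The TPM mean is lower with 4-OI (31.7 against 35) and the mean implied length is higher (3739 against 3286 bases), but TPM and implied length overlap between groups as well.

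Twist1, a basic helix-loop-helix factor of crest and mesenchyme, stood at 63.5 ± 1.86 CPM with 4-OI and 66.9 ± 5.17 CPM with DMSO (log2 fold change -0.07, SE 0.04, approximate 95% interval -0.16 to 0.01, adjusted p = 0.18, edgeR). Its relative Twist2 stood at 51.8 ± 1.28 CPM with 4-OI and 52.7 ± 1.22 CPM with DMSO (log2 fold change -0.03, SE 0.03, interval -0.09 to 0.04, adjusted p = 0.547, edgeR). Both genes overlapped between groups. Across the 6 repressors the summed level was 229.5 to 237.6 TPM with 4-OI and 246.7 to 260.3 TPM with DMSO, of which the Snai pair made up 36.0 to 38.3 TPM with 4-OI and 47.5 to 53.2 TPM with DMSO.

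Vim (ENSMUSG00000026728, chromosome 2, 13573927 to 13582826, plus strand), the intermediate filament of mesenchymal cells, was the most abundant gene of the list. It had 3049, 3108, 3039.9 and 2954 CPM with 4-OI, against 3707, 3782, 3864 and 3837 CPM with DMSO, with no overlap (log2 fold change -0.32, SE 0.03, adjusted p = 2.82e-09, edgeR). By mean TPM it ranked 48 of all genes with 4-OI and 28 with DMSO, and it made up 0.235% of all TPM with 4-OI and 0.295% with DMSO. Cdh2, which encodes N-cadherin, was lower at 237, 233, 234 and 237 CPM with 4-OI, against 272, 265, 268 and 261 CPM with DMSO (log2 fold change -0.18, SE 0.02, adjusted p = 2.53e-06, edgeR). Cdh1, which encodes E-cadherin and is the target of the repressors above, had 2, 2, 2 and 1 counts with 4-OI and 6, 4, 2 and 1 counts with DMSO. The lower Snai1 and Snai2 levels were therefore not accompanied by a measurable Cdh1 level.

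Set side by side per length, the 15 mesenchymal and neural crest genes summed to 3119, 3158, 3079 and 2996 TPM with 4-OI, against 3740, 3734, 3843 and 3748 TPM with DMSO, most of it Vim. Without Vim the sums were 740.0, 743.5, 745.2 and 736.7 TPM with 4-OI and 826.6, 806.7, 831.1 and 799.5 TPM with DMSO. All 19 pigment genes summed to 75.6, 70.35, 74.04 and 76.26 TPM with 4-OI and 70.93, 61.01, 69.09 and 68.68 TPM with DMSO, nearly all of it Myo5a, and the groups overlapped. The 17 pigment genes other than Mitf and Myo5a summed to at most 1.19 TPM in a 4-OI library and 1.85 TPM in a DMSO library. On this scale the mesenchymal and crest sum exceeded the sum over all 19 pigment genes in each library, and a higher Mitf with 4-OI was not accompanied by counts of its enzyme targets above the floor.

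The ligands and relatives of the member receptors were chosen after their values were seen, apart from Areg and Kitl. Among the EGFR ligands, Areg (amphiregulin) was higher at 11.8 ± 0.558 CPM with 4-OI and 6.49 ± 0.298 CPM with DMSO (log2 fold change 0.86, SE 0.07, adjusted p = 2.04e-09, edgeR). Ereg (epiregulin) was higher at 117 ± 6.56 CPM with 4-OI and 80.4 ± 1.45 CPM with DMSO (log2 fold change 0.54, SE 0.04), and Btc (betacellulin) was higher at 2.65 ± 0.27 CPM with 4-OI and 1.61 ± 0.174 CPM with DMSO (log2 fold change 0.70, SE 0.15). Hbegf, another ligand of the receptor, was lower at 109 ± 4.13 CPM with 4-OI and 142 ± 3.97 CPM with DMSO (log2 fold change -0.37, SE 0.03), Egf was not called, and Tgfa was under the filter. The receptor was thus lower while 3 of its ligands were higher and 1 was lower.

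In the AXL family, Mertk was lower at 6.73 ± 0.698 CPM with 4-OI and 9.65 ± 0.336 CPM with DMSO (log2 fold change -0.52, SE 0.08, adjusted p = 1.63e-05, edgeR). Tyro3 was higher at 26 ± 0.62 CPM with 4-OI and 23.4 ± 0.88 CPM with DMSO (log2 fold change 0.15, SE 0.04, adjusted p = 0.0118, edgeR), and Gas6, the ligand of the family, was under the filter.

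**Figure D5:**
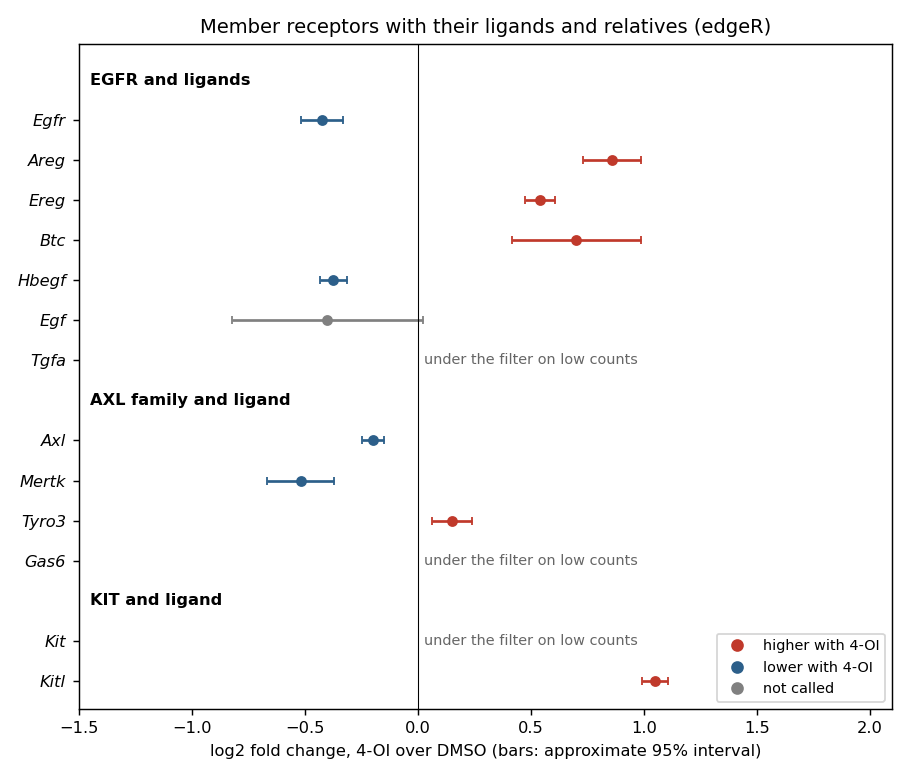
Log2 fold change, 4-OI over DMSO, with approximate 95% intervals, of Egfr, Axl and the ligands and relatives of the receptors EGFR, AXL and KIT, red for higher, blue for lower and grey for not called; Kit, Tgfa and Gas6 were under the filter and have no value. Areg, Ereg, Btc, Tyro3 and Kitl lie right of 0 while Egfr, Axl, Mertk and Hbegf lie left of it.

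Of 28 further neural crest genes, 18 were tested, 2 were higher, 10 were lower and 6 were not called (all tested genes: 19.3% higher, 19.6% lower), and their median log2 fold change was -0.15. Gfra2, a co-receptor of the GDNF family, was lower at 17.4 ± 0.822 CPM with 4-OI and 28 ± 1.61 CPM with DMSO (log2 fold change -0.69, SE 0.05, adjusted p = 2.03e-09, edgeR), and Gfra1, of the same family, was lower at 15.8 ± 0.704 CPM with 4-OI and 21.4 ± 1.14 CPM with DMSO (log2 fold change -0.43, SE 0.05). The Gfra1 call was not made by limma on TPM or FPKM (adjusted p 0.0628 to 0.168). Nrg1 (neuregulin) was lower at 15 ± 0.412 CPM with 4-OI and 22.2 ± 1.71 CPM with DMSO (log2 fold change -0.56, SE 0.06). Gap43, a growth cone protein, was lower at 1.28 ± 0.2 CPM with 4-OI and 1.78 ± 0.252 CPM with DMSO (adjusted p = 0.0411, edgeR). Its call was lost without 4-OI replicate 1, 2 or 4 or without DMSO replicate 1 or 2, with DESeq2 (adjusted p = 0.0929), without the filter (0.0694) and with the replicate block (0.0528), within a range of 0.0246 to 0.166. Among crest specifiers named after their values were seen, Tfap2b and Ets1 fell by 0.35 (SE 0.03) and 0.41 (SE 0.03) on the log2 scale, and Tfap2a and Foxd3 were not called.

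A list of 51 genes of the dedifferentiated program, chosen with earlier results of these data known, held 47 that were tested. Of these, 12 were higher, 25 were lower and 10 were not called (all tested genes: 19.3% higher, 19.6% lower). Their median log2 fold change was -0.20. Tnc (tenascin C), a matrix glycoprotein, had 267, 268, 269 and 253 CPM with 4-OI, against 508, 514, 526 and 517 CPM with DMSO (log2 fold change -0.97, SE 0.03, adjusted p = 6.39e-17, edgeR). Loxl2, a collagen crosslinking enzyme, was lower at 17.1 ± 1.32 CPM with 4-OI and 30.9 ± 1.18 CPM with DMSO (log2 fold change -0.85, SE 0.05), and Nfatc2, a calcium-dependent factor, was lower at 1.64 ± 0.389 CPM with 4-OI and 2.71 ± 0.185 CPM with DMSO (log2 fold change -0.73, SE 0.16). The AP-1 genes of the list moved apart, with Fosl1 and Fosl2 higher and Jun lower (all chosen after their values were seen). Fosl1 stood at 183 ± 5.93 CPM with 4-OI and 136 ± 4.28 CPM with DMSO. Fosl2 stood at 233.6 ± 7.989 CPM with 4-OI and 211 ± 2.355 CPM with DMSO. Jun stood at 184 ± 1.34 CPM with 4-OI and 215 ± 1.84 CPM with DMSO. Matrix and crosslinking genes were thus among those that fell, while EGFR ligands and Fosl1 were among those that rose.

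Of 26 epithelial genes, 10 were tested, 3 were higher, 5 were lower and 2 were not called (all tested genes: 19.3% higher, 19.6% lower), and their median log2 fold change was -0.04. Pkp1, a desmosome plaque protein, was lower at 3.75 ± 0.345 CPM with 4-OI and 6.6 ± 0.967 CPM with DMSO (log2 fold change -0.80, SE 0.11, adjusted p = 5.97e-06, edgeR). Ctnnb1, which encodes beta-catenin, was higher at 659 ± 10.3 CPM with 4-OI and 582 ± 6.41 CPM with DMSO (log2 fold change 0.18, SE 0.02). Jup (plakoglobin) fell by 0.23 (SE 0.09) and Pkp2 rose by 0.14 (SE 0.05) on the log2 scale. The Jup call was lost without 4-OI replicate 1, 2 or 4 or without DMSO replicate 1, 3 or 4. The Pkp2 call was lost without 4-OI replicate 3 or 4 or without DMSO replicate 1 or 4. Both calls were also lost with DESeq2 and in the limma settings, and that of Jup with library totals. In all, Jup lost its call in 12 of 19 alternatives and Pkp2 in 9. Under the filter were 16 of the 26 epithelial genes, as Cdh1 was, beside 41961 of all 55492 rows.

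Markers of other cell types were read beside these results, where 19.3% of all tested genes were higher and 19.6% were lower. Of 9 fibroblast markers, 5 were tested, 4 were lower and 1 was higher. The higher call, that of Pdgfra, was lost in 6 of 19 alternatives. The summed level of the 9 markers was 594.1 to 633.3 TPM with 4-OI and 849.5 to 907.2 TPM with DMSO. Col1a2 stood at 1691 ± 31.8 CPM with 4-OI and 2455 ± 67 CPM with DMSO, Lum was at 0 in all libraries, and Thy1, Fap and Dpt were under the filter. Keratinocyte markers (1 of 7 tested, not called) summed to 3.14 to 4.49 TPM with 4-OI and 2.73 to 3.98 TPM with DMSO. Immune markers (1 of 8 tested, not called) summed to 2.24 to 3.02 TPM with 4-OI and 2.75 to 3.19 TPM with DMSO, and 0 of 6 endothelial markers were tested, at 0.04 to 0.28 TPM with 4-OI and 0.09 to 0.97 TPM with DMSO. Of 7 Schwann cell markers, 5 were tested, 1 was higher and 1 was lower, at 36.66 to 40.58 TPM with 4-OI and 34.03 to 37.95 TPM with DMSO. Collagen genes are also made by mesenchymal melanoma cells, and their part in the lower mesenchymal genes was not tested. Of the markers of the labelled cell type, Mitf was detected, while Sox10, Tyr, Tyrp1, Dct, Pmel and Mlana were at or near 0. Pax3, which was not among these markers and was named after its values were seen, was detected.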

How the data were processed

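RNA-seq of polyA RNA was analysed from 8 YUMM5.2 libraries, 4 given 4-OI and 4 given DMSO. The submitters' processing notes list STAR 2.7.8a, RSEM 1.3.3 and cutadapt 2.3, with quality tools, and the build GRCm38. No source used here gives the annotation release or strand setting. The authors deposited expected counts (estimated counts, whole numbers in these tables), TPM and FPKM per gene. Groups and replicate numbers came from titles.

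The members, wider lists and tests were chosen with earlier results of these data known. edgeR 4.0.16 in R 4.3.3 tested the deposited expected counts (filterByExpr, minimum count 10, TMM, quasi-likelihood F test, two-sided, no covariate), with Benjamini-Hochberg adjustment over 13531 genes and calls under 0.05. SE is the absolute log2 fold change over the square root of F, and approximate 95% intervals use it. Implied effective length is the count divided by FPKM and the library total, for genes of at least 1 FPKM. Symbols on several rows (114 symbols on 234 rows) kept the row with the highest mean count.

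Alternatives were RLE factors, library totals, DESeq2 1.42.0, no filter, limma 3.58.1 on log2 TPM (pseudocounts 1 and 0.1, and no filter) and on log2(FPKM + 1), a replicate block, a GC and length correction (5 spline degrees of freedom each), and each library left out. All 34 members are accounted for, and from each wider list up to 4 called genes of at least 1 mean CPM were named by size of change. Other named genes were chosen after their values were seen. A gene of a wider list is not reported here. The fit was tested on simulated counts.

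Total counts ran from 22962963 to 31361677 per library, so a floor of 3 counts corresponds to 0.0957 to 0.131 CPM. Within a group, pairs of libraries had a chi-square over degrees of freedom of 1.9 to 4.79, above sampling noise, and each counted once. Promoter windows came from RefSeq, GRCm38.p6, and gene positions from GENCODE M21.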

Additional observations from a re-analysis of the deposited data

Results flagged for a closer look

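Of 72 groups of 4 libraries checked, 2 had a library far from the other 3, and chance marks about 1 in 20 such groups. Bhlhe40 in DMSO replicate 3 stood at 77.2 CPM, against 65.9 to 67.5 CPM in the other DMSO libraries. Tnc in 4-OI replicate 4 stood at 253 CPM, against 267 to 269 CPM in the other 4-OI libraries. Both genes kept their call in each alternative run.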

How the results depend on the processing

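The 8 lower calls among mesenchymal and neural crest genes held in all 19 alternatives, as did the Mitf and Nes calls. Leaving out 1 library at a time, the pigment genes gave 1 to 2 higher and 0 to 1 lower calls, and the mesenchymal and neural crest genes 1 to 2 higher. Pigment genes gave 2 higher calls with library totals and with the GC and length correction with replicate block, through Myo5a. They gave 0 lower calls, through the loss of Mlph, with DESeq2, without the filter and in the 4 limma settings. In those 4 settings the mesenchymal and neural crest genes gave 1 higher call, that of Nes, because the Zeb2 call was lost. Over all genes, limma gave 1620 lower calls on log2(TPM + 1), 1615 on log2(TPM + 0.1), 1284 without the filter and 1535 on FPKM, and 1362 higher calls without the filter, against 2646 lower and 2607 higher with edgeR on counts. The cause was not tested.

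Zeb1 turned negative with limma, at -0.138 on log2(TPM + 1) with and without the filter, -0.142 on log2(TPM + 0.1) and -0.129 on FPKM (adjusted p 0.0571 to 0.112). Tfeb turned positive, at 0.004 with library totals and on FPKM, 0.003 with the GC and length correction and 0.001 with its replicate block, and leave-one-out values ran from -0.082 to 0.067. Of 1216 results over 64 genes and 19 alternatives, 1114 kept side and direction, 88 lost the call, 4 gained it and 10 turned.

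Replicate numbers are not stated to mark a shared batch, and same-numbered libraries correlated at 0.065, 0.088, -0.018 and -0.012 in their deviations. With the replicate block 2526 genes were higher and 2618 lower. Among them were 1 higher and 1 lower pigment gene and 2 higher and 8 lower mesenchymal and neural crest genes. Of the 64 genes followed over the alternatives, only Gap43 lost its call with that block (adjusted p = 0.0528, edgeR). Depth limits the 18 genes under the filter, whose differences were not detectable.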
